A study of Drosophila melanogaster with 53 samples.

Results

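The Bomanins are a family of small immune peptides of Drosophila, and 9 of their genes were followed through an irradiation series: BomS1, BomS2, BomS3, BomS5 and BomS6 (short forms), BomBc1, BomBc2 and BomBc3 (bicipital forms) and BomT1 (a tailed form). The 9 were chosen by name, with earlier results of these data known. FlyBase gene identifiers were matched to symbols, and all 9 were found among the 15222 genes of the deposited table. For 7 of the 9 the mean normalised read count over all libraries was at least 10, and these 7 were tested. BomS5 and BomT1 lay below that level and are described only. The 3 other Bomanin genes, BomS4, BomT2 and BomT3, are given beside them, and of these only BomT3 passed the same filter.

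The libraries came from whole adult males that were irradiated 2 days after eclosion, with the question whether the response to radiation has a threshold. A control at background radiation and groups given 10, 1000, 5000, 10000 and 20000 R were followed to 2, 10 and 20 days past the exposure. This made 18 groups of 3 libraries, except for the control at day 20, which had 2, and 53 libraries in all. The labels name no strain or genotype and do not say whether the libraries of a group came from separate cultures, and the p-values therefore rest on the spread among these libraries alone, which may be technical. Within each group the letters a, b and c follow the order of the table's columns and pair nothing across groups.

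Bomanins are made mainly by the fat body, the insect organ that corresponds to liver and adipose tissue, and are secreted into the haemolymph. Their genes are switched on by the Toll pathway: recognition proteins that bind fungal or Gram-positive bacterial wall start a cascade of serine proteases that cleaves the ligand Spätzle, which activates the receptor Toll and in the end the transcription factors Dif and Dorsal. Flies that lack the main cluster of Bomanin genes are known to succumb to fungi and Gram-positive bacteria. Short Bomanins consist of little more than the conserved peptide motif, tailed ones carry an extension after it, and bicipital ones hold a pair of motifs joined by a linker.

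In the RefSeq annotation of Release 6, 10 Bomanin genes stand next to each other on chromosome 2R with no other gene between them, in the order BomT1, BomBc1, BomS1, BomS4, BomBc2, BomS2, BomS3, BomT2, BomS5 and BomS6. This run holds 8 of the 9 genes followed here. BomBc3 lies elsewhere, on chromosome 3R, next to BomT3. BomS4 and BomBc2 overlap in this annotation, and whether the authors' counting used strand is not given in the sources used here, so reads at the shared bases cannot be told apart. The short forms resemble each other in sequence, and how reads that fit several of them were counted is not given either.

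The libraries held 15354220 to 46152062 reads assigned to genes. In 6 libraries fewer genes had a value above 0 (11213 to 12229, against 12375 to 14553 in the other 47): libraries b and c of 10 R at day 2, library c of 10 R at days 10 and 20, library c of 5000 R at day 20 and library b of the control at day 20. Short transcripts were low in them: among the tested genes with under 500 exon bases, 47.1% to 67.8% lay more than 1 log2 unit below the libraries of the same group that are not among the 6, against 12.99% to 33.3% of genes with 2000 bases or more. For both 10 R libraries of day 2 and for the control library of day 20 this comparison was with 1 library alone, library a, and for the others with the mean log2 value of libraries a and b. These are gene-level differences, and lengths were taken from the Ensembl BDGP6 annotation for 94.4% of the tested genes. Another 3 libraries stood apart otherwise, 10 R day 10 a and 10000 R day 10 c by the yolk protein gene Yp1 and 20000 R day 10 a by the histone His1 genes. For the Bomanins, values without these libraries are given below where leaving them out changes a call or a direction.

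**Figure D1:**
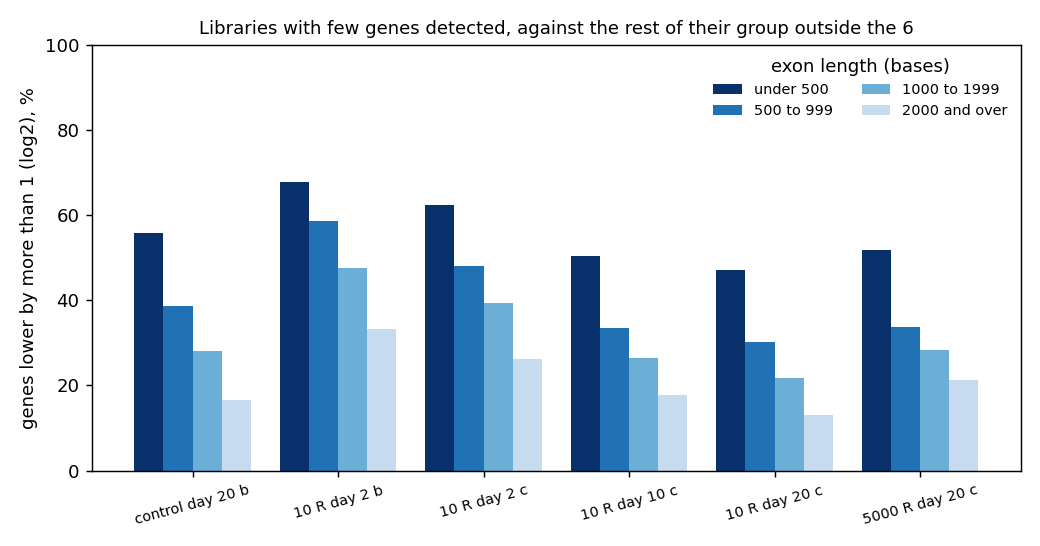
Share of tested genes lying more than 1 log2 unit below the same group's libraries that are not among the 6 (vertical axis, percent; 1 library for 10 R at day 2 and the control at day 20, 2 elsewhere), in each of the 6 libraries with few genes detected, by exon length (bars, bases). In each library the share is largest for genes of under 500 bases, between 47.1% and 67.8%, and smallest for genes of 2000 bases or more.

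Several Bomanins were low in these 6 libraries. BomS1 had a median normalised count of 3.98 there, against 407 in the other 47 libraries. BomS2 had a median of 4.78, against 934, and BomS3 a median of 39.1, against 2022. BomBc2 and BomT3 were not low in them: BomBc2 ranged from 6381 to 12006 in the 6 libraries and from 4058 to 9404 in the other 47, and BomT3 from 7447 to 16812 and from 3068 to 13040. BomBc1 had a median of 356 in the 6 libraries and 164 in the other 47, which pools groups of unlike BomBc1 level. Within groups its direction was mixed: 661 against 1196 in 10 R day 2 b, but 165 against 95.4 in control day 20 b. Exon lengths were 361, 367 and 769 bases for BomS1, BomS2 and BomS3. For BomBc1, BomBc2 and BomT3 they were 468, 711 and 657. The part of length in the Bomanin values was not tested. BomS1 was also at 0 in 10 R day 20 b and at 4.51 in 1000 R day 20 b, libraries that are not among the 6. The SD of log2(normalised count + 1) within groups was 1.67 for BomS3 over all libraries and 0.37 without the 6; for BomBc3 it was 0.89 and 0.37, while for BomBc1 it was 0.92 and 0.99. For BomBc2 it was 0.26 and 0.23.

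At day 2 BomBc1 (FBgn0034328) was the only tested Bomanin called lower at 1000 R or more in the fit of all libraries. It was called at 5000 and at 20000 R, with estimates about 4 log2 units below the control. In the control at day 2 the 3 libraries had 2516, 2196 and 1812 normalised counts of BomBc1. At 10 R they had 1196, 661 and 1261. At 1000 R they had 52.1, 500 and 126, and at 5000 R 72.7, 226 and 180. Every library given 10 R or more lay below every control library, as did 13.1% of all tested genes at 10 R. Those given 1000 R or more lay below those given 10 R, with 1 exception at 10000 R. At 1000 R, 12.6% of all tested genes lay below every 10 R library, and for the higher doses against 10 R this share was not counted. At 10000 R the values were 141, 179 and 1485, so that library c stood above the 10 R libraries, and at 20000 R they were 85.7, 144 and 134. Library by library, BomBc1 rested on 38 to 2884 assigned reads over the whole series.

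Fitted with limma on log2(normalised count + 1), with p-values adjusted over the 12475 tested genes by Benjamini-Hochberg, BomBc1 fell by 4.18 ± 0.73 (SE) at 20000 R against control at day 2 (adjusted p = 0.00152). The mean was 121 ± 31.1 at 20000 R and 2175 ± 353 in the control (SD, n = 3 each). At 5000 R it fell by 3.90 ± 0.73 (adjusted p = 0.0102 in limma), with means of 160 ± 78.6 and 2175 ± 353 (SD, n = 3 each). The 5000 R call was lost, at an adjusted p between 0.0520 and 0.0933, when any 1 of the control libraries was left out, and both calls were lost when only the libraries of day 2 were fitted (adjusted p = 0.181 at 5000 R and 0.0775 at 20000 R). At 1000 R the estimate was of like size, -3.84 ± 0.73, and missed the threshold (adjusted p = 0.0707); without 1000 R library b it was -4.71 (adjusted p = 0.00493). At 10000 R it was -2.68 ± 0.73 (adjusted p = 0.279), and without library c it was -3.75 (adjusted p = 0.0192). At 10 R it was -1.11 ± 0.73 (adjusted p = 0.21).

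**Figure D2:**
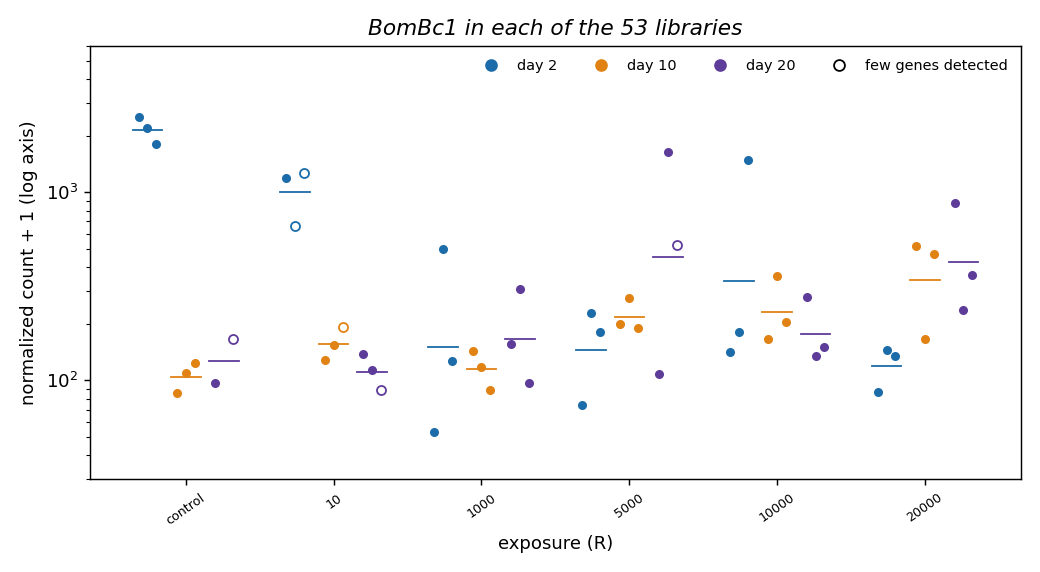
BomBc1 in each of the 53 libraries: normalised count + 1 on a log axis (vertical) by exposure in R (horizontal), with a colour for each day after exposure. Bars are the means of log2(count + 1), and open circles are libraries with few genes detected; the 3 control libraries of day 2 stand highest, between 1812 and 2516, and the 20000 R libraries of day 2 lie between 85.7 and 144.

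Between neighbouring doses at day 2, BomBc1 differed at the step between 1000 R and 10 R. The log2 difference, 1000 R minus 10 R, was -2.73 ± 0.73 (adjusted p = 0.0039 in limma), with means of 226 ± 240 at 1000 R and 1039 ± 329 at 10 R (SD, n = 3 each). At this step 13.9% of all tested genes were called lower. Without the libraries of few genes 1 library of 10 R remained, which was assumed to vary like the other groups; the estimate was then -2.99 and its adjusted p was 1.00. From 1000 R upwards no step passed the threshold for BomBc1: the estimates were -0.05 for 5000 R against 1000 R, 1.22 for 10000 R against 5000 R and -1.50 for 20000 R against 10000 R (adjusted p = 1, 0.612 and 1).

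Most other Bomanins lay below the control at day 2 in many libraries given 1000 R or more, and none of them passed the test at these doses. BomS1, a short form and the neighbour of BomBc1, had 369, 293 and 19.5 normalised counts at 20000 R, against 1212, 2111 and 1988 in the control. At 1000 R it had 181, 873 and 145. These groups do not overlap with the control, but the log2 estimates of -2.59, -2.12, -1.91 and -3.72 from 1000 to 20000 R each had an SE of 2.00. BomBc3, the bicipital form on chromosome 3R, had 1074, 796 and 636 at 20000 R, against 1810, 1899 and 1707 in the control. Its estimates were -1.37, -0.68, -0.99 and -1.14 from 1000 to 20000 R, each with an SE of 0.70. Without the 9 libraries that stand apart BomBc3 was called lower at 20000 R, with an estimate of -1.14 (adjusted p = 0.0404 in limma), and without only the 6 of few genes the same estimate was not called (adjusted p = 0.0659).

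BomS3, another short form, had 1378, 1955 and 1719 at 1000 R and 3920, 3969 and 3773 in the control at day 2. At 20000 R its libraries spread from 1438 to 3977 and reached the control range. BomS2 likewise had 2528, 862 and 156 at 20000 R, against 2146, 1405 and 1251 in the control, so the groups overlap. BomBc2 had the estimate nearest to 0: it had 6084, 5506 and 5487 at 20000 R, against 6259, 6109 and 6022 in the control, a log2 estimate of -0.11 ± 0.21. BomS6, at the other end of the cluster, was low throughout at day 2, with 10.4, 28.8 and 22.5 at 20000 R, against 6.58, 8.14 and 3.35 in the control. It was the only tested Bomanin whose 20000 R libraries all lay above the control libraries at day 2.

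Counted over the 7 tested Bomanins at day 2, 0 were called lower at 1000 R, where 0% of all tested genes were; at an unadjusted p under 0.05 there were 2, with edgeR 0 and with DESeq2 1. At 5000 R 1 was called lower (0.401% of all genes), at 10000 R 0 (0.0721%) and at 20000 R 1 (0.0802%), each time BomBc1. At 10000 R an unadjusted p under 0.05 took in 1, and edgeR and DESeq2 each called 0. By the position of single libraries, 6 of the 7 lay below every control library at 1000 R, where 5.39% of all tested genes did. At 5000 and at 10000 R 5 of the 7 did (8% and 9.81% of all genes), and at 20000 R 3 of the 7 did (12.8%), while 1 lay above (9.13%). The median log2 estimate over the 7 was -1.37, -0.64, -1.14 and -1.14 from 1000 to 20000 R, beside medians between -0.03 and 0.01 over all tested genes.

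**Figure D3:**
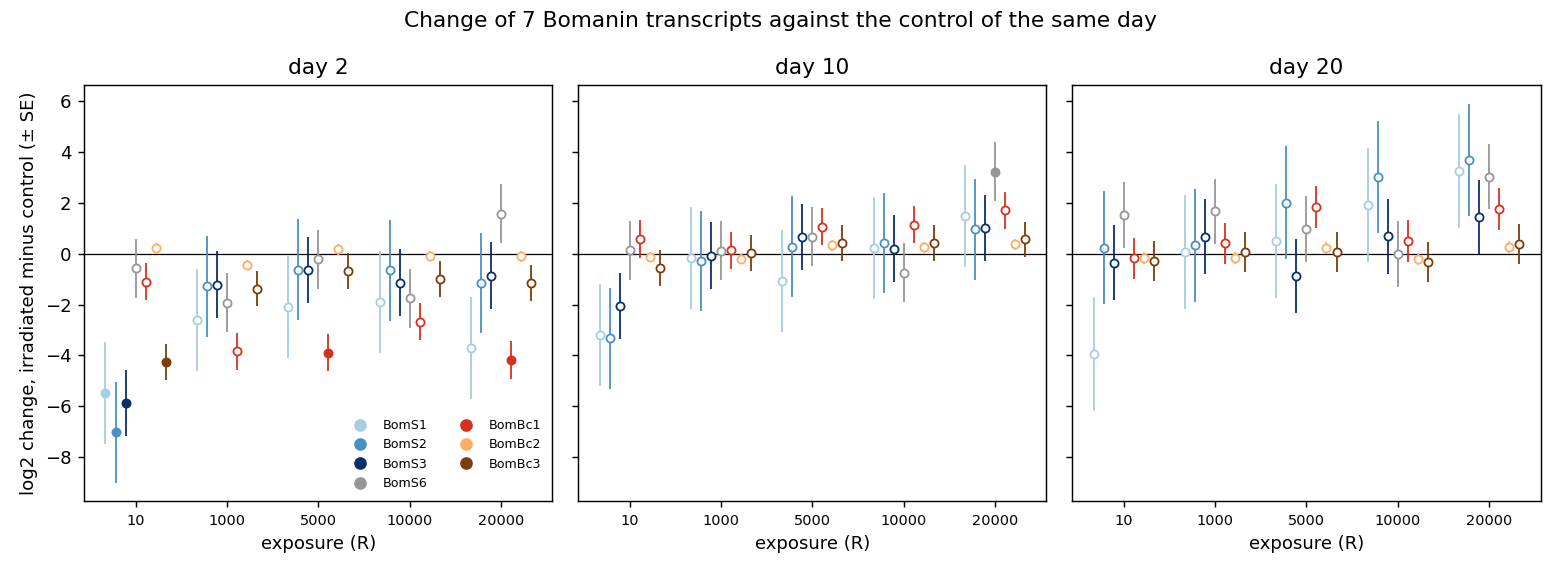
Log2 change of the 7 tested Bomanins in irradiated males against the control of the same day, with SE bars (vertical axis), by exposure in R (horizontal axis) at days 2, 10 and 20. Filled points passed an adjusted p of 0.05; BomBc1 lies at -3.90 and -4.18 at 5000 and 20000 R at day 2, and at 20000 R every estimate of days 10 and 20 is above 0. The filled points at 10 R rest on 2 libraries with few genes detected.

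At 10 R and day 2, 4 of the 7 were called lower, BomS1, BomS2, BomS3 and BomBc3, among 32% of all tested genes. These calls rested on libraries b and c, in which few genes were detected. BomS3 had 2855, 20.6 and 3.81 normalised counts at 10 R, against 3920, 3969 and 3773 in the control. BomS2 had 1738, 0 and 0, against 2146, 1405 and 1251, and BomBc3 had 1371, 12.9 and 43.1, against 1810, 1899 and 1707. In each case library a lay near the control and the 2 others near 0. Without the libraries of few genes, which leaves library a alone at 10 R, none of the 4 was called, and the estimates were -0.86 for BomS1, 0.16 for BomS2, -0.45 for BomS3 and -0.40 for BomBc3.

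The step between 1000 R and 10 R at day 2 carried the same libraries. BomS2, BomS3 and BomBc3 were called higher at 1000 R, among 31.5% of all tested genes, by 5.74, 4.64 and 2.89 on the log2 scale; without the libraries of few genes the estimates turned to -1.44, -0.78 and -0.97 and none was called. BomBc2 was called lower at 1000 R, with 4615, 4115 and 4719 against 6329, 8551 and 6602 at 10 R (-0.67 ± 0.21, adjusted p = 0.00995 in limma). Without the libraries of few genes its estimate was -0.50 and was not called. At the steps from 1000 to 20000 R 0 of the 7 were called in either direction, beside 0.0561% of all tested genes for 5000 R against 1000 R and 0.016% for each of the 2 higher steps. An unadjusted p under 0.05 took in 1 higher for 5000 R against 1000 R, none for 10000 R against 5000 R, and 1 lower and 1 higher for 20000 R against 10000 R. By edgeR and by DESeq2 the count was 0 at each of these steps.

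In unirradiated males BomBc1 also fell with age. This comparison uses the same 3 control libraries of day 2 as the dose comparisons of that day, so the results are not independent. It had 84.7, 108 and 122 normalised counts in the control at day 10 and 95.4 and 165 at day 20, against 2516, 2196 and 1812 at day 2. All later libraries thus lay below all those of day 2, and the day 10 libraries covered much the same range as the 20000 R libraries of day 2. BomBc1 fell by 4.36 ± 0.73 at day 10 (adjusted p = 0.00011) and fell by 4.09 ± 0.82 at day 20 (adjusted p = 0.000709, limma), with means of 105 ± 18.96 (n = 3) and 130 ± 49.4 (n = 2) at the later days and 2175 ± 353 at day 2 (SD, n = 3). Without control library b of day 20, which is among those of few genes, library a alone remained and the day 20 estimate was -4.48. BomBc1 was the only tested Bomanin called in either comparison, where 1.02% of all tested genes were called lower at day 10 and 4.28% at day 20.

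The position of single libraries showed the same direction for other Bomanins between control days. At day 10, 6 of the 7 lay below every day 2 library (20.6% of all tested genes), and at day 20, 4 did (32.1%), while BomBc2 lay above (17.5%). BomS1 had 266, 474 and 448 at day 10, against 1212, 2111 and 1988 at day 2. BomS3 had 1518, 1784 and 2035 at day 10, against 3920, 3969 and 3773 at day 2, and was called lower only when the libraries of few genes were left out of the series (-1.14, adjusted p = 0.00943). In that setting 2.32% of all tested genes were called lower. BomBc2 had 5336, 5757 and 5824 at day 10, against 6259, 6109 and 6022 at day 2, a log2 estimate of -0.12 ± 0.21.

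Summed markers of blood cells and of the fat body moved between the same control groups. The summed level of 11 blood cell markers was 17356 to 19319 at day 10, against 27554 to 34763 at day 2. Of its 10 tested genes 1, srp, was called higher and none lower, and the haemocyte gene He was at 0 in all libraries of these groups. Over all tested genes 1.74% were called higher there. Another 3 of the 10, Col4a1, vkg and NimC2, were called lower without the libraries of few genes, beside 2.32% of all tested genes. The summed level of 8 fat body markers was 105371 to 128163 at day 10, against 51942 to 58723 at day 2, with 2 of 6 tested genes called higher, Lsp2 and Desat1. These 2 made up most of that sum, with means of 31886 and 68435 at day 10, against 3438 and 39445. The median log2 change of the list was 0.43. Most of the blood cell sum at day 2 was Col4a1 and vkg, with control means of 13142 and 7460. Each sum thus follows its most abundant genes. The part of blood cells and fat body in the Bomanin differences was not tested. In whole flies, fewer cells of a type and less RNA per cell cannot be told apart.

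At the later days the 20000 R libraries stood above the control for BomBc1. At day 10 it had 516, 164 and 468 normalised counts at 20000 R, against 84.7, 108 and 122 in the control. At day 20 it had 881, 237 and 364 at 20000 R, against 95.4 and 165 in the control. The groups do not overlap at either day, and 22.8% and 25.2% of all tested genes likewise lay above every control library at days 10 and 20. Neither difference passed the test (1.71 ± 0.73, adjusted p = 0.1, and 1.75 ± 0.82, adjusted p = 0.134). Without 20000 R library b the day 10 estimate was 2.23 (adjusted p = 0.0473), and without the 9 libraries that stand apart, 20000 R library a among them, it was 1.41 (adjusted p = 0.253). At day 20 it was 2.14 without the libraries of few genes (adjusted p = 0.189). Across doses at day 10 the group means in order of exposure were 105 in the control, 157 at 10 R, 115.5 at 1000 R, 220 at 5000 R, 242 at 10000 R and 383 at 20000 R. At day 20 the 5000 R group held a library at 1637, beside 108 and 521, so that its SD of 791 exceeded its mean of 755.

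The dose effect on BomBc1 differed between days by an F test of the 2 differences from day 2, at 5000 R (adjusted p = 0.0159), 10000 R (adjusted p = 0.0138) and 20000 R (adjusted p = 1.12e-05, limma, Benjamini-Hochberg). Among all tested genes 0.0561%, 14.1% and 13.8% were called in these tests. At 20000 R the log2 effect against control was higher at day 10 than at day 2 by 5.89 and higher at day 20 than at day 2 by 5.92. These differences include the course of the control itself, with log2 estimates of -4.36 at day 10 and -4.09 at day 20 against day 2. The 20000 R means were 121, 383 and 494 at days 2, 10 and 20. The 5000 R call was lost without the libraries of few genes (adjusted p = 0.0851) and without any 1 control library of day 2 (adjusted p between 0.0512 and 0.0991). The 10000 R call was lost without 10000 R day 2 library a or b (adjusted p = 0.1 and 0.0756) and with edgeR (adjusted p = 0.0912). At 1000 R the differences were 3.97 and 4.24 and missed the threshold (adjusted p = 0.978), where 0% of all genes were called. At 10 R the test called BomBc3 instead (adjusted p = 0.041, among 4.04% of genes), and without the libraries of few genes its adjusted p was 1.00. Without those libraries, which leaves control library a alone at day 20, BomS3 and BomBc3 joined BomBc1 at 10000 R and at 20000 R. How many of all tested genes passed in that setting was not counted.

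At 20000 R and day 10 all 7 tested Bomanins stood above every control library of that day, where 22.8% of all tested genes did. BomS1 had 1082, 862 and 1272 normalised counts at 20000 R, against 266, 474 and 448 in the control. BomS3 had 4269, 2958 and 3577, against 1518, 1784 and 2035. BomS2 had 1475, 1236 and 1436, against 817, 541 and 806. BomBc2 and BomBc3 showed smaller gaps, BomBc2 with 6756, 8048 and 6997 at 20000 R against 5336, 5757 and 5824 in the control, and BomBc3 with 1759, 2007 and 1921 against 1142, 1186 and 1570. The median log2 estimate over the 7 was 1.01, beside 0.10 over all tested genes.

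By the test 1 of the 7 was called higher at 20000 R and day 10, BomS6, among 2.72% of all tested genes. BomS6 had 74.2, 41.3 and 104 at 20000 R, against 11.04, 9.15 and 2.35 in the control, and rose by 3.22 ± 1.16 (adjusted p = 0.0399 in limma), with means of 73.1 ± 31.3 and 7.51 ± 4.57 (SD, n = 3 each). This was a low count, and leaving out any library except 20000 R library b moved its adjusted p to between 0.0513 and 0.186. With edgeR it was 0.0747. Without the libraries of few genes BomS3 was called too, at 1.01 (adjusted p = 0.00592), and without the 9 that stand apart, 20000 R library a among them, at 0.88 (adjusted p = 0.0414). In these settings 8.59% and 6.48% of all tested genes were called higher.

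At 20000 R and day 20, 5 of the 7 lay above both control libraries (25.2% of all tested genes) and 0 were called, where 5.6% of all genes were called higher; 2 had an unadjusted p under 0.05, and edgeR and DESeq2 each called 0. BomS1 had 859, 1158 and 956 at 20000 R, against 350 and 29.4 in the control, and BomS2 had 1937, 1284 and 1361, against 807 and 16.1. Control library b is 1 of those with few genes, and without it the log2 estimates were 1.49 for BomS1 and 0.90 for BomS2, against 3.25 and 3.67 with it. BomS3 had 3915, 2978 and 3557, against 1930 and 844. BomS6 had 11.3, 65.1 and 105, against 28.3 and 0, and overlapped the control.

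**Figure D4:**
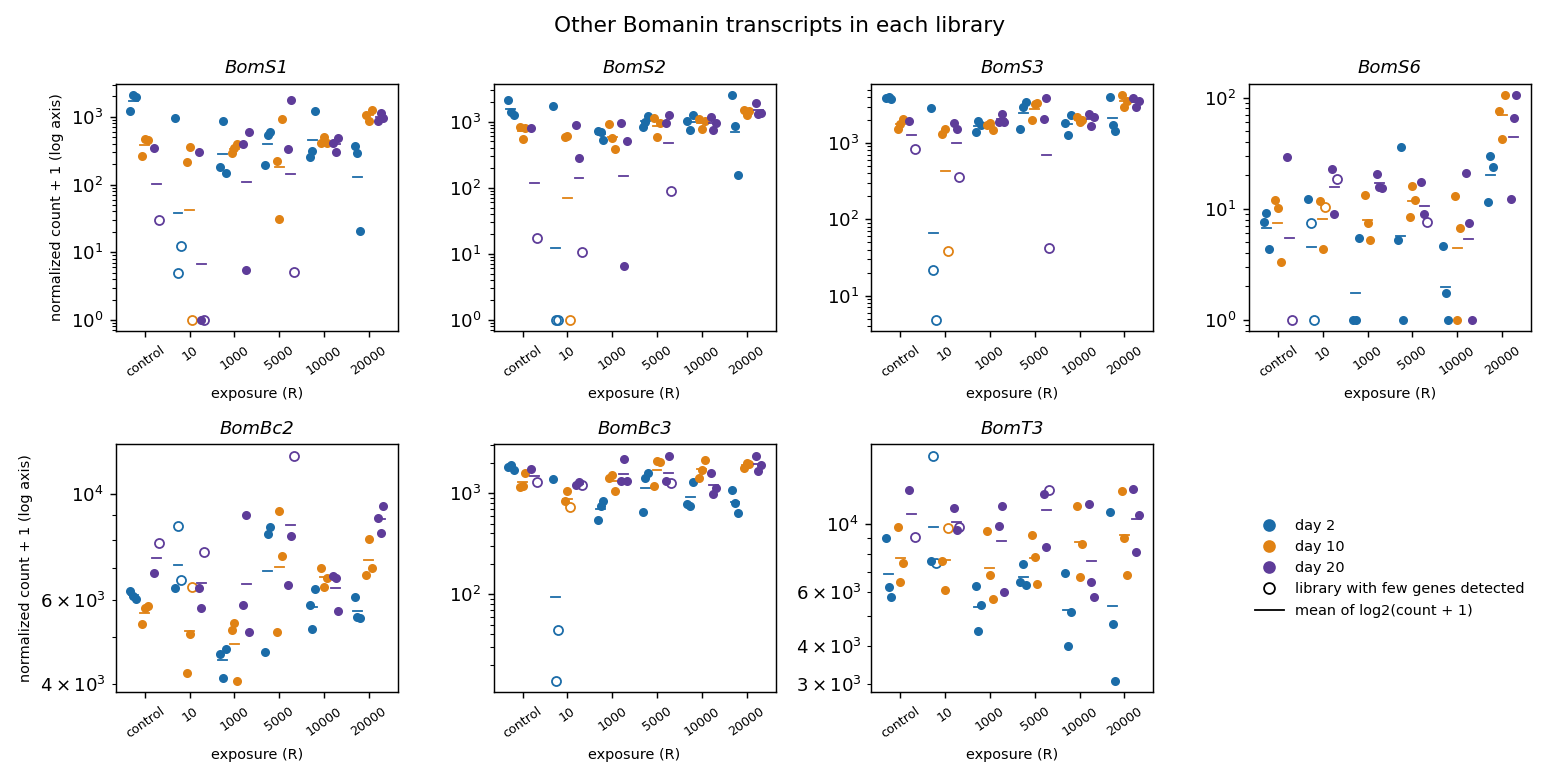
Normalised count + 1 on a log axis (vertical, a scale for each gene) of the 6 other tested Bomanins and of BomT3 in each library, by exposure in R (horizontal) and day (colour). Open circles are libraries with few genes detected and bars are the means of log2(count + 1); BomS1, BomS2 and BomS3 are low in most of those libraries, and for each of the 6 the 20000 R libraries of day 10 stand above the control libraries of day 10, while those of BomT3 overlap them.

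At 10000 R, 2 of the 7, BomBc1 and BomBc2, lay above every control library at day 10 (21.7% of all genes), none was called there, and 1 lay below at day 20 (24.6%). BomS1 had 411, 506 and 417 at 10000 R and day 10, against 266, 474 and 448 in the control. BomS3 had 2184, 1884 and 2022, against 1518, 1784 and 2035. At 10000 R 0 of the 7 were called at either day, while 22.1% of all genes were called at day 10 and 21.1% at day 20; none had an unadjusted p under 0.05, and edgeR and DESeq2 each called 0. The 2 doses were not tested against each other at the later days.

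At 10, 1000 and 5000 R 0 of the 7 were called at day 10 or day 20, beside 0%, 0% and 0.016% of all genes at day 10 and 0.016%, 0.016% and 0.473% at day 20. An unadjusted p under 0.05 took in 1 of them, higher at 5000 R and day 20, and edgeR and DESeq2 each called 0. At 5000 R and day 10 BomBc1 lay above the control, with 198, 273 and 189 against 84.7, 108 and 122, where 6.73% of all genes lay above with no overlap. At 10 R and day 10 BomBc1 also lay above every control library, with 127, 153 and 192 (4.31% of all genes). At that dose and day, BomS3 and BomBc3 lay below all control libraries (11.8% of all genes), and for both the lowest of the 10 R libraries was c, with few genes detected.

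In the same comparison at 20000 R and day 10 the blood cell markers summed to 21983 to 32091, against 17356 to 19319 in the control, and 1 of the 10 tested, NimC2, rose (1.56 ± 0.34, adjusted p = 0.000315 in limma), beside 2.72% of all tested genes called higher. The count was 5 of the 10 without the libraries of few genes, with Hml, Pxn, crq, Col4a1 and NimC2 higher, beside 8.59% of all genes. The summed fat body markers were 101907 to 124477 at 20000 R, against 105371 to 128163 in the control, so these ranges overlap. At day 2 the fat body sum was 57832 to 63487 at 20000 R, against 51942 to 58723 in the control, and the blood cell sum 27020 to 36933, against 27554 to 34763. None of the markers was called at 20000 R and day 2; without the libraries of few genes Lsp2, of the fat body list, was called higher (1.17, adjusted p = 0.0244 in limma). The part of either cell type in the Bomanin values was not tested.

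The scarce Bomanins rested on few libraries. BomS5 was above 0 in 7 of 53 libraries, at most at 2.07 except for 29.7 in 20000 R day 10 a. BomT1, the tailed form, was above 0 in 4 libraries, below 1 in 3 of them and at 46.5 in the same 20000 R library. BomT2 had 49.4 there, and 70.5 in 5000 R day 2 c. 20000 R day 10 a is the library with the high His1 level, so the highest values of BomS5 and BomT1 have no second library of their group beside them: both others were at 0. BomS4, which overlaps BomBc2, ranged up to 25.7. BomT3, a tailed form on chromosome 3R, had 10945, 4698 and 3068 at 20000 R and day 2, against 9019, 6231 and 5767 in the control, and 12841, 9023 and 6819 at 20000 R and day 10, against 9787, 6449 and 7465. These groups overlap.

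Correlations among the Bomanins depended on the pair and on the libraries taken. As a description over 47 libraries without the 6 of few genes, Pearson's r of log2 values was 0.72 between BomS1 and BomS2, 0.72 between BomS3 and BomBc3, and 0.75 between BomBc2 and BomBc3. BomBc1 had r = 0.68 with BomS3 and 0.45 with its neighbour BomS1. Over all 53 libraries the r of BomBc1 with BomS3 was -0.06 and that of BomS1 with BomS3 was 0.69. These points share depth and library quality.

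The gene whose values were most like the mean of the 7 Bomanins, over all 53 libraries and over the 47, was CG16978 (r = 0.91 and 0.78). This mean was of log2 values centred per gene but not scaled, so the Bomanins that varied most weigh most in it. Over all libraries the SD within groups was 2.55 for BomS1 and 2.52 for BomS2, against 0.26 for BomBc2. Bbd (Bombardier), a secreted factor needed for the activity of the short Bomanins in haemolymph, ranked 3 over the 53 libraries (r = 0.87) and 2 over the 47 (r = 0.76). With single Bomanins over the 53 libraries, its r was 0.94 for BomS3 and 0.85 for BomS2, but -0.12 for BomBc1 and -0.15 for BomBc2. The other 8 of the 10 most alike over the 53 libraries were PolZ2, Sting, Unc50, Dup99B, CG14645, Phk-3, CG30197 and CG31704, at r between 0.866 and 0.873, and of these only PolZ2 and Sting were among the 10 most alike over the 47. Bbd had 5873, 6355 and 3083 normalised counts at 20000 R and day 2, against 13362, 13282 and 11780 in the control. At day 10 it had 13481, 13492 and 14534 at 20000 R, against 7724, 10097 and 9625. Its libraries at 20000 R thus lay below the control at day 2, as did 12.8% of all tested genes. At day 10 they lay above it, as did 22.8%. Bbd was also low in the 6 libraries of few genes, with a median of 856, against 9810 in the other 47.

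Upstream of the Bomanins, the genes of the Toll pathway were taken in the same comparisons. Of the 12 tested genes for recognition and the protease cascade, 0 were called at 20000 R and day 2, where PGRP-SD, a recognition protein, had the lowest estimate among the 4 with the smallest p (-0.45 ± 0.22, adjusted p = 1.00), and the list's median was 0.04. Of the 10 tested genes for the receptor and its signalling chain 0 were called, with a median of -0.07. At 10 R and day 2, 2 of the 12 were called lower and 1 higher, and of the 10 signalling genes 6 were called lower and 2 higher, where 32% of all tested genes were lower and 15.4% higher. At 1000 R against 10 R, 4 of the 12 were lower and 2 higher, and 2 of the 10 lower and 5 higher. There 13.9% of all tested genes were called lower and 31.5% higher. Neither list had a call in these 2 comparisons without the libraries of few genes, which leaves library a alone at 10 R. At the later days the gene modSP, the apical protease of the cascade, rose by 0.29 ± 0.10 at 20000 R and day 10 (adjusted p = 0.0372) and by 0.40 ± 0.10 at 10000 R (adjusted p = 0.00235). The gene grass, a protease downstream of it, rose by 0.65 ± 0.23 at 10000 R and day 10 (adjusted p = 0.0386). The gene dl, which encodes Dorsal, rose by 0.71 ± 0.21 at 20000 R and day 20 (adjusted p = 0.0103) and by 0.60 ± 0.21 at 10000 R (adjusted p = 0.0338). Over all tested genes 2.21% and 2.72% were called higher at 10000 and 20000 R at day 10, and 4.44% and 5.6% at day 20. Without the 6 libraries of few genes, and without the 9 that stand apart, these calls of modSP, grass and dl were kept, and at 20000 R and day 10 the count of signalling genes called higher was 3 of 10 in both settings, against 0 with all libraries. In those settings 8.59% and 6.48% of all tested genes were called higher at 20000 R and day 10. With age, the control gained PGRP-SD, GNBP3 and modSP at day 10 against day 2, by 0.87, 0.58 and 0.36 (adjusted p = 0.0179, 0.00176 and 0.0368), and at day 20 Hayan with them, 4 of the 12; over all tested genes 1.74% were called higher at day 10 and 3.9% at day 20.

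Of 9 tested genes for other secreted products of Toll signalling, 0 were called at day 2 at 1000, 10000 and 20000 R (0%, 0.0962% and 0.16% of all tested genes). At 5000 R 1 was called (0.449%), and the list's median at 20000 R was -1.15. At 10 R and day 2, 8 of the 9 were called lower, among 32% of all tested genes. For 1000 R against 10 R 5 were called higher, among 31.5%. Both of these counts include 10 R libraries b and c, with few genes detected. Without the libraries of few genes 2 of the 9 were called lower at 20000 R (0.2% of all genes), and without the 9 that stand apart 4 were (0.97%). The genes named are those of the smallest p in the list at 20000 R. SPH93, a serine protease homolog, ranged from 4.003 to 13.8 normalised counts at 20000 R, against 371 to 702 in the control (-5.97 ± 1.61, adjusted p = 0.215, and 0.0149 without the libraries of few genes). Mtk, the antifungal peptide Metchnikowin, ranged from 35.7 to 188, against 1463 to 1704 (-4.43 ± 1.38, adjusted p = 0.497, and 0.0886 without the libraries of few genes). BaraA1 ranged from 3714 to 5176, against 7051 to 11442. At 5000 R and day 2 SPH93 fell by 8.31 ± 1.61 (adjusted p = 0.0116 in limma) and was the only gene of the 9 called there. In control flies SPH93 was lower at day 10 than at day 2 by 5.31 ± 1.61 (adjusted p = 0.0676, and 0.00568 without the libraries of few genes), with means of 10.8 and 486.

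Peptides that answer mainly to the Imd pathway, the other humoral arm of fly immunity, were set beside them. Of 11 tested at 20000 R and day 2, 0 were called and the median was -3.49, and of 17 Imd pathway genes 0 were called with a median of 0.04. Dro, an antibacterial peptide, ranged from 39.1 to 84.1 at 20000 R, against 1218 to 4438 in the control (-5.31 ± 1.47, adjusted p = 0.252). At 5000 R and day 2 Dro was called lower (-6.24 ± 1.47, adjusted p = 0.0430 in limma), with means of 29.6 and 2563. It was the only 1 of the 11 called at that dose and day, beside 0.401% of all tested genes. DptB, a diptericin, ranged from 58.7 to 178, against 768 to 2904 (-3.67 ± 1.12, adjusted p = 0.437). Counted over the lists, 8 of the 11 Imd-induced peptides and 6 of the 9 secreted products of Toll signalling lay below every control library at 20000 R and day 2, where 12.8% of all tested genes did. None of the 11 was called at 20000 R without the libraries of few genes either.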

How the data were processed

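Males were irradiated and sequenced as whole bodies; per the submitters' processing notes TopHat2 2.0, DESeq and the dm3 genome were used, with the counting program and annotation not given in the sources used here. The authors deposited a signal per gene and library, read counts divided by a size factor (normalised counts). With a tolerance of 0.1 read, 100% of the values came out as whole reads, so edgeR and DESeq2 were run on the recovered reads as alternatives. The main test was limma 3.58.1 (R 4.3.3; edgeR 4.0.16, DESeq2 1.42.0), eBayes with trend, on log2(normalised count + 1), which understates the change of low genes, for 12475 genes with a mean of at least 10, with a mean for each of 18 groups and Benjamini-Hochberg adjustment per comparison, threshold 0.05. The fit was tested on simulated data. Alternatives were pseudocounts of 0.5 and 8, no filter, quantile normalisation, libraries of 1 day, libraries left out singly or together; the exclusion of the 6 libraries with few genes was added after seeing the data. Named genes were the Bomanins, for each list at most 4 genes, those with the smallest p in 20000 R males of day 2, and the 10 most correlated genes; SPH93 and Dro at 5000 R, NimC2, srp, Lsp2, Desat1, modSP, grass, dl, GNBP3, Hayan, Col4a1, vkg, Hml, Pxn and crq in other comparisons are named because they were called with or without those libraries. The members and lists were chosen with earlier results of these data known. Symbols were found for 14347 identifiers; Drs, BaraA2, Traf6, Mtp, FASN1 and PPO1 of the lists were not matched. No sequence is shown.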

Additional observations from a re-analysis of the deposited data

Results flagged for a closer look

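Differences of the dose effect between days passed the test (limma F test over all tested genes) for BomBc1 at 5000 R (adjusted p = 0.0159), at 10000 R (adjusted p = 0.0138) and at 20000 R (adjusted p = 1.12e-05), where 0.0561%, 14.1% and 13.8% of all tested genes passed: the estimates at these doses against control were below 0 at day 2 and above 0 at days 10 and 20. The 5000 R result did not pass without the libraries of few genes (adjusted p = 0.0851) or without any 1 control library of day 2 (0.0512 to 0.0991), and the 10000 R result did not pass without 10000 R day 2 library a or b (0.1 and 0.0756) or with edgeR (0.0912). For BomBc3 at 10 R the same test gave an adjusted p of 0.041, among 4.04% of all tested genes, and at day 2 it rested on libraries b and c, with few genes detected. All of these tests share the 3 control libraries of day 2 and are not independent. No group held enough libraries to look for a single library far from the others.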

How the results depend on the processing

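No paired analysis was possible because the columns carry no replicate numbers. Counts are of the 7 tested Bomanins called. Left out singly, libraries moved the number lower at day 2 between 2 and 4 at 10 R, between 0 and 1 at 1000 R, 5000 R and 10000 R, and the number higher at 20000 R between 0 and 2 at day 10 and between 0 and 1 at day 20. At 1000 R against 10 R the range was 1 to 2 lower and 0 to 4 higher, and at 5000 R against 1000 R it was 0 to 1 higher. For differences between days it was 0 to 3 at 10 R, and 0 to 1 at 1000 R, 5000 R and 10000 R. Without the 9 libraries that stand apart, the number lower was 0 at 10 R (4 in the main analysis) and 2 at 20000 R (1) at day 2 and 2 (1) for control day 10 against day 2; 2 (1) were higher at 20000 R and day 10; 1000 R against 10 R gave 0 lower (2) and 0 higher (3); and differences between days gave 0 at 10 R (1), 0 at 5000 R (1), 2 at 10000 R (1) and 3 at 20000 R (1). Without the 6 of few genes these counts were the same except 1 lower at 20000 R and day 2 and 3 differing at 10000 R. In both settings BomS2 turned to 0.16 at 10 R and day 2, and BomS2, BomBc3 and BomS3 turned to -1.44, -0.97 and -0.78 at 1000 R against 10 R. With edgeR 1 was lower at 10 R and day 2, 0 higher at 20000 R and day 10, 0 higher at 1000 R against 10 R, and 0 differed between days at 10 R and at 10000 R. With DESeq2 1 was lower at 10 R and 1 at 1000 R at day 2, 2 were higher at 20000 R and day 10 and 0 at 1000 R against 10 R; no F test was run with it. Quantile normalisation gave 1 lower at 1000 R and day 2, 1 higher at 10000 R and 2 at 20000 R at day 10, 1 higher at 20000 R and day 20, and 0 differing at 10 R; it put the median over all genes at 0.42 and 0.38 (log2) for 10000 and 20000 R at day 10, beside 0.03 and 0.10 in the main analysis, and also shifted it by over 0.1 for 10 R at days 2 and 10, 10000 and 20000 R at day 20, 1000 R against 10 R, and control day 20 against day 2. Libraries of 1 day gave 0 lower at 5000 R and 0 at 20000 R at day 2 and 2 higher at 20000 R and day 10. A pseudocount of 0.5 gave 0 higher at 20000 R and day 10, and a pseudocount of 8 gave 1 higher at 20000 R and day 20 and 0 differing at 10 R, as did no filter for the last. The cause was not tested. Depth limits BomS6, which had a median of 9 reads per library, and BomS5 and BomT1, which were not tested.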
